A study of Arabidopsis thaliana with 6 samples.

Results

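The loci described here had a low level in 1 library of the cross with the TEmob mother, and 92 of the 33602 loci in the deposited table met the rule that chose them. Poly(A) RNA had been sequenced from F1 endosperm nuclei of Arabidopsis thaliana, purified by INTACT (capture of nuclei that carry a tagged envelope protein) 4 days after pollination. The cross written Cm x L had the TEmob line as mother and Landsberg erecta (Ler) as father. In the cross written L x Cm, plants of Ler that carry the pistillata mutation were pollinated by TEmob. TEmob, shared by all libraries as a parent, is a Columbia-0 line with the INTACT construct that was started from seed put on α-amanitin with 40 µM zebularine, in the cold and then at 37 °C in the dark. A cross to CENH3-TAILSWAP plants gave haploids, colchicine restored the diploid state, and TEmob is 1 diploid line found in this way. Each cross had 3 libraries, numbered 1 to 3 in the labels, which do not say whether these came from separate plants.

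A locus was a member when its mean over the 6 libraries was at least 20 RPKM (reads scaled by locus length and library total) and when its level in Cm x L replicate 3, after adding 1 RPKM, was at most 25% of that in both Cm x L replicate 1 and replicate 2. Of the 8503 loci with such a mean, called the expressed loci below, 1.08% were members. The low level in Cm x L replicate 3 is therefore how the loci were chosen and not a result, and the mean that let them in also used the L x Cm libraries. The same rule turned to the other libraries took 1 locus reduced in Cm x L replicate 1, 0 in replicate 2, 0 in L x Cm replicates 1 and 2, and 11 in L x Cm replicate 3. Turned upward, it took 62 loci raised in Cm x L replicate 3 and 69 raised in Cm x L replicate 2. Just inside the threshold lay AT3G41762, ENODL10 and AT1G16960, with 0.2491, 0.2491 and 0.247 as the larger of the 2 ratios. Just outside lay AT5G34862, PMEI1 and AT1G78520, with ratios of 0.2504, 0.2507 and 0.2515.

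The endosperm of a seed begins as a syncytium in which nuclei divide without cell walls, and at about the heart stage of the embryo it forms walls around them. Cytokinesis then builds a new wall between daughter nuclei, for which the syntaxin KNOLLE fuses vesicles at the cell plate. Embryo maturation is controlled by B3 transcription factors such as FUSCA3, which bind the RY element and switch on storage protein and oil body genes. Early nodulin-like (ENODL) proteins are small plasma membrane proteins with a plastocyanin-like domain, and some of them act in the ovule when it receives the pollen tube.

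The 6 libraries held 21.2 to 29.2 M reads, recovered from the spacing of low values. Cm x L replicate 3 stood apart within its cross: across the 8503 loci its log2 levels correlated at 0.789 and 0.777 with Cm x L replicates 1 and 2. Those 2 correlated at 0.949 with each other, and the L x Cm libraries at 0.891 to 0.929. With L x Cm replicates 1 to 3, Cm x L replicate 3 correlated at 0.721, 0.679 and 0.768, and Cm x L replicates 1 and 2 at 0.655 to 0.749. Cm x L replicate 3 also listed 10084 loci at 0, against 1005 to 5036 in the other libraries. All 10 endosperm markers were detected in every library, with summed levels of 531 to 719 RPKM. Embryo markers summed to 330.3, 283 and 145 RPKM across Cm x L and to 161, 179 and 168 RPKM in L x Cm. Without LEC1, the most abundant of them, the sums were 173, 131 and 75.9 RPKM in Cm x L and 133, 119 and 122 RPKM in L x Cm. ESR1 (also called DRN), CUC3 and WOX2 were at 0 in Cm x L replicate 3, and ESR1 was at 0 in Cm x L replicate 1. Seed coat markers, all 14 detected in each library, summed to 256, 343 and 827 RPKM in Cm x L and to 756, 936 and 1064 RPKM in L x Cm. Pollen markers, all 8 detected in each library, summed to 132, 744 and 67.1 RPKM in Cm x L and to 794, 3045 and 1167 RPKM in L x Cm. Leaf markers, all 8 detected in each library, summed to 3669, 3896 and 5141 RPKM in Cm x L and to 2244 to 2629 RPKM in L x Cm. None of the 50 markers was a member. The part of these tissues in the levels below was not tested.

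**Figure D1:**
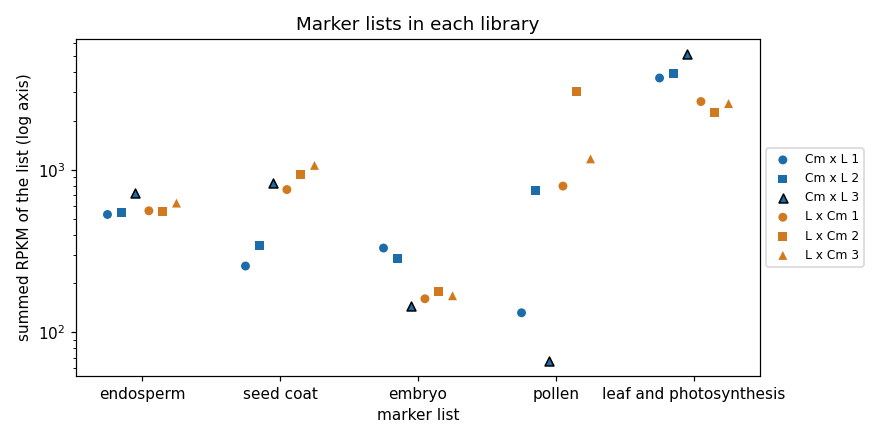
Summed RPKM (log axis) of 5 marker lists in each library; blue points are Cm x L, orange points L x Cm, and the black outline marks Cm x L replicate 3. The embryo sum of that library (145 RPKM) lies near the L x Cm sums, its pollen sum (67.1 RPKM) is the lowest of the 6 and its leaf sum (5141 RPKM) the highest. Without LEC1 its embryo sum is 75.9 RPKM, against 119 to 133 RPKM in L x Cm.

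The members' promoters are shown first for some of the loci described below. They are the maturation regulator FUS3, the oil body gene OLEO3, the lipid-transfer family gene AT5G38170, and ENODL3 and ENODL4. Also shown are 3 loci with strong reduction that include KNOLLE (SYP111). Each window is the 250 bases before the annotated start in RefSeq TAIR10.1, 5′ to 3′ on the strand of the gene. Capitals mark CATGCA (the RY element) and AACGG (the core of the mitosis-specific activator, MSA), each on either strand, so that they read TGCATG and CCGTT on the opposite one. In OLEO3 a CATGCA overlaps an AACGG, and in AT5G38170 the matches on the 2 strands overlap in CATGCATG. Every window shown holds a match to CATGCA or AACGG, so these windows do not stand for the members as a whole. Those of the strongly reduced IMK2, CYP714A2, PDF2.1 and UBC31 held 0 of either, as did that of ENODL10.
FUS3 (chr3:9856213-9856462, minus strand): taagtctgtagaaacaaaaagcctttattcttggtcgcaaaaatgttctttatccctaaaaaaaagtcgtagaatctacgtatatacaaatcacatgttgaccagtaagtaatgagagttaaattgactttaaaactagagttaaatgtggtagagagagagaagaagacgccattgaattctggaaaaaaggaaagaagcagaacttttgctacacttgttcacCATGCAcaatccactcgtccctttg
OLEO3 (chr5:20819818-20820067, plus strand): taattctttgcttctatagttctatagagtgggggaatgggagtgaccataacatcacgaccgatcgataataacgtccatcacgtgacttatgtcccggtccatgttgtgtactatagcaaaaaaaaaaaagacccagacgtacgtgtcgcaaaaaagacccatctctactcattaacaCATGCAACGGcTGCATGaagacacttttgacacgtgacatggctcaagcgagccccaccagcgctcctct
AT5G38170 (chr5:15227388-15227637, plus strand): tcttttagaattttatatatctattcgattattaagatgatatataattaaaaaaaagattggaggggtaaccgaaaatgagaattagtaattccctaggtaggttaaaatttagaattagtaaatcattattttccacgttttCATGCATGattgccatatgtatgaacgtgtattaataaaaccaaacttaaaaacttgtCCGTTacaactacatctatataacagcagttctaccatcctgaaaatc
ENODL3 (chr4:14033841-14034090, minus strand): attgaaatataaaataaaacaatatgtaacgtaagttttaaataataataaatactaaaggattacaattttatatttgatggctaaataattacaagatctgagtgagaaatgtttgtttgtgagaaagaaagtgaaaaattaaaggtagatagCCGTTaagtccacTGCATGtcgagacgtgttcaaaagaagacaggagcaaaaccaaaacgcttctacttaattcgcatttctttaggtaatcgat
ENODL4 (chr4:15679653-15679902, minus strand): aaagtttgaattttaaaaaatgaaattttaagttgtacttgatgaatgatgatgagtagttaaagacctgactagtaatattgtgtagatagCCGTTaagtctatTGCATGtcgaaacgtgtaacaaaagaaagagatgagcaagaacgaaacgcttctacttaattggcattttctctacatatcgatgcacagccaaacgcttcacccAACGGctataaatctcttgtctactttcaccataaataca
SYP111 (chr1:2711001-2711250, minus strand): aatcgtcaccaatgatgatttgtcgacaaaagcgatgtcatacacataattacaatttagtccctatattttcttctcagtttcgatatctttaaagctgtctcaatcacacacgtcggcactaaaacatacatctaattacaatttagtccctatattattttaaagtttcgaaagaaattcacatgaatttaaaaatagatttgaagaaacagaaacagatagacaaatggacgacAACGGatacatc
AT1G63100 (chr1:23402177-23402426, minus strand): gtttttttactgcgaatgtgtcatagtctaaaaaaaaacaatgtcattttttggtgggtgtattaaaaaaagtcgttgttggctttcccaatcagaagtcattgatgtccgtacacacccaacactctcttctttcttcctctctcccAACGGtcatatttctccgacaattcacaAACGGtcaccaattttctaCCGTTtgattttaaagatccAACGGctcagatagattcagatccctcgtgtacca
AT5G56120 (chr5:22721123-22721372, plus strand): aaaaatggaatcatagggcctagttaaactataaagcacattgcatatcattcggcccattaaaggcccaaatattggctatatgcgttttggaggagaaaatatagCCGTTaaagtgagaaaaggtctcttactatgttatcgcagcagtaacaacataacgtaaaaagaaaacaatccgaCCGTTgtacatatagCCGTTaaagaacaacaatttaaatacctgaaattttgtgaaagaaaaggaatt

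Of the 78 protein-coding members, 17 held CATGCA in this window, or 21.8%, against 6.22% of the 8241 expressed protein-coding loci and 8.43% of all 27443 windows. These 17 include FUS3 itself, OLEO3, TBL22, ENODL3 and ENODL4. AACGG lay in 29.5% of member windows, 22.6% of the windows of expressed loci and 20.6% of all windows. The window of AT1G63100, a GRAS family transcription factor gene, held it 4 times and that of AT5G56120 held it 3 times. In ENODL3 and ENODL4 a CCGTT stood 13 bases before a TGCATG, at 95 and 158 bases before the start. The other motifs searched lay in shares of member windows from 0% for GGGCCC (site II) and TTTCCCGC (E2F) to 15.4% for TTGACC (W-box), and in 2.82%, 0.595% and 12.5% of the windows of expressed loci. CACGTG (G-box) lay in 7.69% against 7.98%, TTGACT (W-box) in 12.8% against 18.6%, CCGAC (DRE core) in 14.1% against 12.4% and GAANNTTC (heat shock element) in 5.13% against 8.74%. AAACCCTA (telo-box) lay in 3.85% against 4.17%, GCCGCC (GCC-box) in 1.28% against 1.99% and TTTGGCGC (E2F) in 1.28% against 0.376%. A match is a string of letters and not a shown binding site, and the windows were compared without a test.

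Of the 92, 78 were protein coding, or 84.8%, against 96.9% of the expressed loci. There were also 6 transcribed pseudogenes, 2 pseudogenes, 2 small nuclear RNA loci, 1 small nucleolar RNA, 1 transfer RNA, 1 microRNA (MIR842) and 1 long noncoding RNA. Protein-coding members had a median exon length of 922 bases, against 1623 for expressed protein-coding loci, and 52.6% of them against 18.3% were under 1000 bases. They lay on all 5 chromosomes, with 23, 14, 25, 12 and 18 on chromosomes 1 to 5. Of the 92, 32 carried a symbol and 11 were annotated only as uncharacterized protein. An annotated locus overlapped 21 of them, and because the use of strand is not given in the sources used here, reads of overlapping loci cannot be told apart. This holds for AT3G22070 and the antisense AT3G22072, both members, and for AT3G06895 and the snRNA locus U4.2, both members as well. Whether members share reads with close copies elsewhere was not examined.

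Median levels of the 92 loci in the Cm x L libraries were 64.9, 58.5 and 8.65 RPKM in number order, and 37.5, 24.8 and 20.8 RPKM in those of L x Cm. The median over the 8503 loci was 36.2 to 40.5 RPKM in all 6 libraries. In Cm x L replicate 3, 3 members (AT2G07743, AT2G20619 and AT4G03290) were listed at 0, and AT3G50250 and AT5G28690 had about 3 reads or fewer. In bulk nuclei, fewer nuclei of a type and less RNA per nucleus cannot be told apart. The smaller of the 2 reductions, on the RPKM + 1 scale, had a median of 5.73-fold, and 24 loci reached 8-fold and 9 reached 16-fold.

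The L x Cm libraries did not have 1 common place. At 54 members all 3 L x Cm libraries lay below Cm x L replicates 1 and 2, at 8 all 3 lay above, and at 30 they overlapped. The first count is 58.7% of members against 37.9% of the 8503 loci, and the second 8.7% against 21.7%. On the log2 scale the L x Cm mean was nearer Cm x L replicate 3 at 43 members and nearer replicates 1 and 2 at 49. Which of the 2 counts was larger depended on the settings: with 5 RPKM added the mean was nearer replicate 3 at 35 of 52 members (67.3%), after quantile normalization at 43 of 77 (55.8%), with a mean of at least 50 RPKM at 19 of 33, with the ratio bound at 12.5% and 33.3% at 16 of 24 and 88 of 174, and without L x Cm replicate 1 at 47 of 92. All 3 L x Cm libraries lay within 2-fold of Cm x L replicate 3 at 20 members, and none of them did at 41. At 6 members all 3 L x Cm libraries were below even Cm x L replicate 3, and at 68 none was. Since the rule used the Cm x L values, these counts describe the members and carry no test. The counts nearer, within 2-fold of or below Cm x L replicate 3 have no share over the expressed loci beside them. Whether they differ from that share was not examined.

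**Figure D2:**
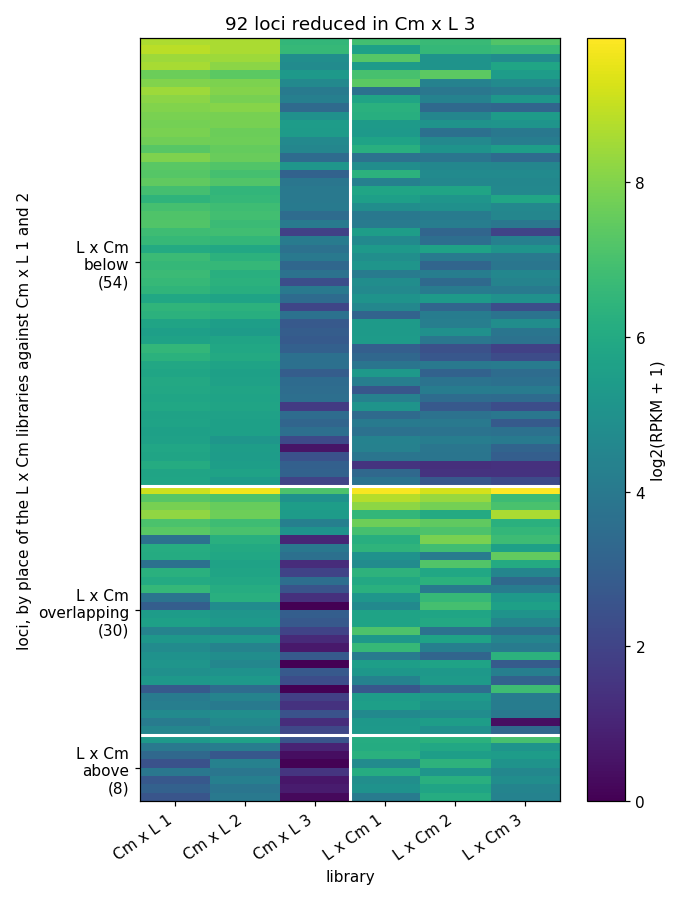
Level of the 92 loci, as log2(RPKM + 1), in the 6 libraries; rows are grouped by whether the L x Cm libraries lay below (54), overlapped (30) or lay above (8) Cm x L replicates 1 and 2, and sorted by mean level within each block. The Cm x L 3 column is darker than its neighbours on the left in each row; the L x Cm columns are darker than Cm x L 1 and 2 in the top block and brighter in the bottom block.

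The ENODL genes formed the largest named family. Of 22 ENODL loci in the table, 10 were expressed at that level, and 5 of these were members. The family was singled out after the values were seen, as were those of its members that no fixed rule named. Values are given in number order within each cross. ENODL3 had 343, 341 and 28.6 RPKM in Cm x L and 155, 32.5 and 27.0 RPKM in L x Cm. The 2 L x Cm libraries numbered 2 and 3 thus lay at the level of Cm x L replicate 3, and L x Cm replicate 1 lay between. ENODL14, at 211, 206 and 24.1 RPKM in Cm x L and 52.5, 24.3 and 17.2 RPKM in L x Cm, had the same order. ENODL15 had 236, 227 and 31.0 RPKM against 71.3, 22.1 and 41.6 RPKM. ENODL4 had 158, 186 and 21.9 RPKM against 74.1, 32.8 and 45.7 RPKM. In ENODL10, with 454, 392 and 96.9 RPKM against 47.6, 94.4 and 101 RPKM, L x Cm replicate 1 was the lowest library in place of the highest of its cross.

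The other 5 expressed ENODL loci differed among themselves. ENODL12 had 38.3, 40.1 and 11.5 RPKM in Cm x L and 72.2, 41.3 and 36.3 RPKM in L x Cm, and missed the rule. ENODL11 had 193, 189 and 134 RPKM and 269, 212 and 102 RPKM, and ENODL16 had 38.3, 39.3 and 42.0 RPKM and 40.2, 20.9 and 44.6 RPKM. ENODL19 (11.4, 12.9 and 33.6 RPKM in Cm x L) and ENODL1 (10.9, 13.9 and 16.6 RPKM) were highest in Cm x L replicate 3 within that cross. So loci of 1 family lay on either side in the same library.

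**Figure D3:**
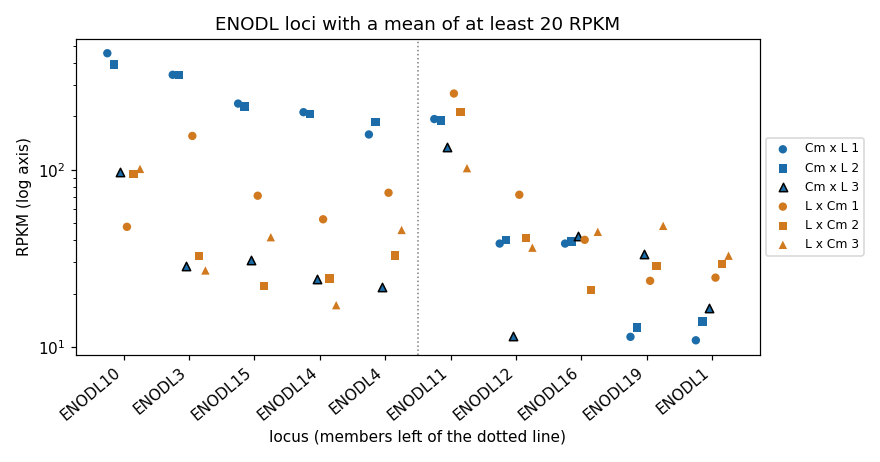
RPKM (log axis) of the 10 expressed ENODL loci in each library; blue is Cm x L, orange L x Cm, and the black outline Cm x L replicate 3. For the members on the left that library lies at 21.9 to 96.9 RPKM, below replicates 1 and 2, and for the other loci on the right it lies below, within or above them.

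SYP111, which encodes KNOLLE, was the member of the cell cycle list, and the loci described with it were placed here by annotation after their values were seen. AT1G63100, the GRAS family gene, had 111, 113 and 2.72 RPKM in Cm x L and 44.2, 8.39 and 2.98 RPKM in L x Cm. SYP111 had 94.9, 95.4 and 8.94 RPKM in Cm x L and 34.4, 8.39 and 13.6 RPKM in L x Cm. IMK2, a receptor-like kinase gene of meristems, had 256, 270.2 and 9.68 RPKM in Cm x L and 75.5, 9.28 and 8.25 RPKM in L x Cm. At all 3 loci L x Cm replicate 1 lay above the other libraries of its cross and below Cm x L replicates 1 and 2. NPQ1, which overlaps SYP111 by 464 bases on the opposite strand, had 69.1, 57.0 and 77.5 RPKM in Cm x L and 40.9, 24.8 and 30.1 RPKM in L x Cm, without the low value in Cm x L replicate 3. AT5G56120, annotated as an RNA polymerase II elongation factor, had 57.6, 53.5 and 2.29 RPKM against 33.5, 5.81 and 4.01 RPKM, in the same order. TRM5, whose family recruits proteins to the microtubule array before division, had 122, 109.6 and 15.7 RPKM against 27.6, 30.1 and 23.7 RPKM. For TRM5 the L x Cm libraries were all within 2-fold of Cm x L replicate 3. ICR1, a partner of ROP GTPases, had 46.8, 42.1 and 6.51 RPKM against 40.9, 30.4 and 13.3 RPKM. Of the 10 expressed cell cycle loci, only SYP111 had a level in Cm x L replicate 3 at most 0.5 times that of both other libraries, as 5.25% of the 8503 loci did. As a member, SYP111 met this bound by the rule.

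Regulators of development and hormones were next. ULT2, an ULTRAPETALA chromatin regulator gene, had 285, 232 and 18.0 RPKM in Cm x L and 53.2, 19.8 and 36.0 RPKM in L x Cm. LBD42, a LOB domain transcription factor gene, had 236, 202 and 41.7 RPKM against 39.1, 11.4 and 14.6 RPKM, so that all 3 L x Cm libraries lay below Cm x L replicate 3. BES1, a transcription factor of brassinosteroid signalling, had 59.4, 52.2 and 11.6 RPKM against 13.1, 14.7 and 16.4 RPKM. RTE1, which acts with an ethylene receptor, had 86.7, 71.8 and 15.1 RPKM against 23.8, 16.3 and 15.2 RPKM. For BES1 and RTE1 the 3 L x Cm libraries were all within 2-fold of Cm x L replicate 3. EPF2, a secreted peptide that limits stomatal cell divisions in leaves, had 106, 73.8 and 12.2 RPKM against 16.0, 17.4 and 23.0 RPKM. For EPF2, too, the 3 L x Cm libraries lay far below Cm x L replicates 1 and 2. CYP714A2, a cytochrome P450 that inactivates gibberellins, had 87.6, 79.6 and 3.15 RPKM against 22.9, 8.39 and 4.05 RPKM. RL6 (144, 106 and 15.9 RPKM against 15.6, 17.0 and 14.1 RPKM) and the B3 gene REM1 (79.4, 71.1 and 11.7 RPKM against 7.87, 16.8 and 12.7 RPKM) had L x Cm levels like Cm x L replicate 3.

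Among maturation and reserve genes, FUS3 had 54.9, 41.6 and 3.04 RPKM in Cm x L and 12.5, 5.61 and 3.76 RPKM in L x Cm. OLEO3, an oleosin of oil bodies, had 54.0, 45.2 and 5.78 RPKM against 40.3, 17.8 and 27.3 RPKM, so that its L x Cm libraries lay between the 2 levels of Cm x L. ICL, isocitrate lyase of the glyoxylate cycle, had 14.9, 17.4 and 0.977 RPKM against 67.0, 59.3 and 33.5 RPKM, above all 3 Cm x L libraries. Of 13 regulators of maturation, 6 were expressed and 3 of these had a level in Cm x L replicate 3 at most 0.5 times that of both other libraries, beside 5.25% of the expressed loci. Of 6 expressed storage and oil body loci, 1, OLEO3, did. FUS3 and OLEO3 are counted here and, as members, met this bound by the rule, so these counts carry no test. By limma between the crosses (adjusted p under 0.05), Cm x L exceeded L x Cm at 3 of the 13 regulators and fell short at 2, and at 1 and 8 of 24 tested storage loci, beside 6.73% and 18.3% of all 26620 tested loci. Within Cm x L the embryo marker sum was lowest in replicate 3, as given above, with or without LEC1. FUS3 and OLEO3 were low in that library by the rule. In L x Cm the embryo sums were 161, 179 and 168 RPKM, beside the FUS3 and OLEO3 levels given above. By limma, Cm x L exceeded L x Cm at 1 of the 10 embryo markers and fell short at 6, beside the same 6.73% and 18.3%. The part of embryo tissue in these levels was not tested.

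Several of the most abundant members encode small or secreted proteins. PDF2.1, a plant defensin, had 344, 259 and 15.2 RPKM in Cm x L and 11.9, 14.2 and 16.3 RPKM in L x Cm, and the BTB domain gene AT2G05330 had 247, 196 and 9.96 RPKM against 12.2, 13.2 and 9.97 RPKM. At both loci all 4 low libraries lay close together. AT5G38170, of the lipid-transfer and 2S albumin superfamily, had 403, 387 and 92.6 RPKM against 117, 103 and 144 RPKM. AT1G13607, a defensin-like gene, had 231, 192 and 44.5 RPKM against 289, 225 and 129 RPKM, so that its L x Cm libraries overlapped Cm x L replicates 1 and 2. AT1G12080, a vacuolar calcium-binding protein-like gene, had 256, 243 and 24.3 RPKM against 164, 19.8 and 25.4 RPKM. AT5G50090, annotated as similar to a ribose-binding protein, had 380, 283 and 25.8 RPKM against 41.9, 32.8 and 55.2 RPKM. At AT1G12080 L x Cm replicate 1 was far above the other 2, while at AT5G50090 the 3 L x Cm libraries lay together. AT5G50740, of a heavy metal transport superfamily, had 155, 122 and 7.65 RPKM against 79.9, 25.3 and 25.5 RPKM. TBL22, of a family that acetylates wall polysaccharides, had 53.8, 43.3 and 4.61 RPKM against 13.4, 13.3 and 6.75 RPKM. Both loci had all 3 L x Cm libraries below Cm x L replicates 1 and 2. GSTU15, a glutathione S-transferase, had 199, 166 and 38.1 RPKM against 127, 165 and 43.2 RPKM. The chloroplast ribosomal protein gene RPL12-B had 37.0, 38.3 and 4.01 RPKM against 19.6, 40.4 and 7.82 RPKM. At these 2 loci L x Cm replicate 3 was near Cm x L replicate 3 and L x Cm replicate 2 was near the high libraries. AT5G15190, uncharacterized, had the largest reduction, 30.8-fold, at 55.6, 44.5 and 0.476 RPKM against 19.3, 13.7 and 8.02 RPKM. AT2G42110, also uncharacterized, had 95.8, 78.3 and 4.00 RPKM against 27.4, 9.46 and 20.5 RPKM.

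**Figure D4:**
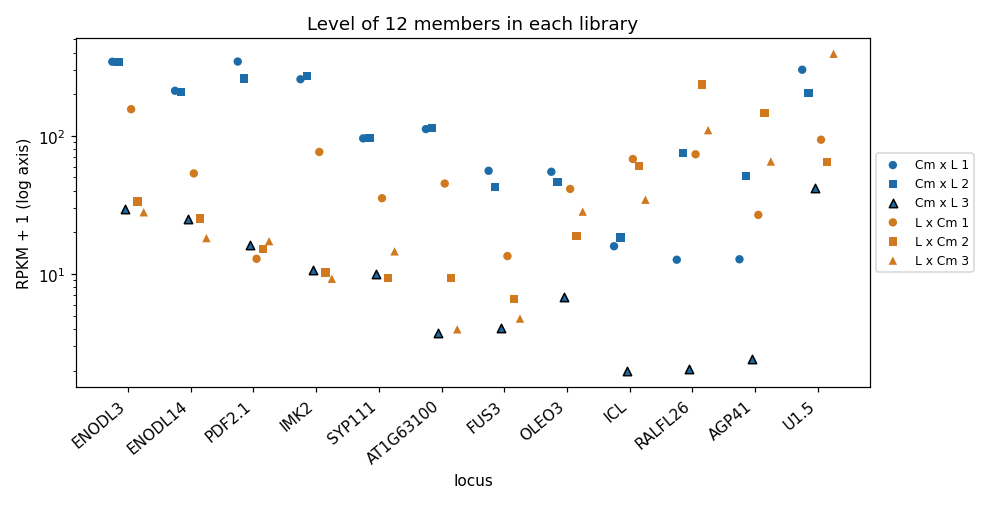
RPKM + 1 (log axis) of 12 members in each library; blue is Cm x L, orange L x Cm, and the black outline Cm x L replicate 3. From ENODL3 to FUS3 the L x Cm points lie below Cm x L replicates 1 and 2, at ICL they lie above them, and at RALFL26 and AGP41 replicate 2 is the highest library of each cross.

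The most abundant member, AT3G41762, had 562, 814 and 139 RPKM in Cm x L and 880.4, 594 and 935 RPKM in L x Cm, and antisense loci overlap it. Among these, AT3G41761 had 286, 729 and 119.5 RPKM in Cm x L and 1036, 725 and 902 RPKM in L x Cm. Reads of AT3G41762 and AT3G41761 cannot be told apart. AT5G22150 had 159, 134 and 31.7 RPKM against 434, 326 and 107 RPKM. AT1G24212, a transcribed pseudogene, had 133, 111 and 18.1 RPKM against 205, 176 and 76.3 RPKM, and the B3 domain gene AT2G18810 had 160.2, 131 and 31.5 RPKM against 123, 136 and 92.9 RPKM. At these 4 members no L x Cm library was as low as Cm x L replicate 3. UBC31, a ubiquitin-conjugating enzyme, had 36.1, 38.7 and 1.24 RPKM against 37.9, 51.6 and 21.8 RPKM, and AT1G27250 had 76.7, 54.0 and 2.94 RPKM against 82.0, 58.4 and 21.4 RPKM. The thionin family locus AT2G20619 was listed at 0 in Cm x L replicate 3 and had 34.7 and 22.6 RPKM in replicates 1 and 2 and 45.0, 52.3 and 6.10 RPKM in L x Cm. The transcribed pseudogene AT4G19239 had 39.1, 48.9 and 5.02 RPKM against 68.0, 77.3 and 126 RPKM, all above Cm x L.

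At 7 members (7.61%) the level in Cm x L replicate 2 stood well above that in replicate 1. They were RALFL26, a RALF family signalling peptide, AGP41, an arabinogalactan protein, AT3G05725, AT4G02650, AT4G03290, AT4G25780 and AT5G28690, and their level in Cm x L replicate 2 was at least 2 times that in replicate 1, as at 1.53% of the 8503 loci. RALFL26 had 11.7, 74.2 and 1.06 RPKM in Cm x L and 72.6, 235 and 109 RPKM in L x Cm. AGP41 had 11.8, 50.1 and 1.41 RPKM against 25.8, 145 and 64.2 RPKM. AT4G03290, an EF hand calcium-binding protein gene, had 6.75 and 26.5 RPKM in Cm x L replicates 1 and 2, was listed at 0 in replicate 3, and had 24.7, 124 and 47.7 RPKM in L x Cm. At all 7, L x Cm replicate 2 was also at least 2 times both other libraries of its cross. It was so at 8 members (8.7%) and 1.09% of the 8503 loci. Of the 7, AT5G28690, AT4G25780 and AT4G02650 passed the minimum mean only through L x Cm replicate 2, so the shared pattern carries no test. In the same libraries the pollen markers summed to 132 and 744 RPKM (Cm x L replicates 1 and 2), and their lowest sum was that of Cm x L replicate 3. Their part in these levels was not tested.

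The rule used the L x Cm libraries through the mean of all 6. The highest L x Cm library was at least 4 times the lowest (both + 1 RPKM) at 22 members, or 23.9%, against 0.988% of the 8503 loci. L x Cm replicate 1 was at least 2 times both others at 17 members, or 18.5%, against 0.741%. These 17 held SYP111, AT1G63100, IMK2, AT5G56120, ENODL3, ENODL14, LBD42, FUS3, CYP714A2, MIR842, AT1G12080, AT5G50740, AT2G38160, AT2G38870, AT4G12825, AT4G36700 and AT1G68735. L x Cm replicate 3 was at most 0.5 times both others at 15 members, or 16.3%, against 1.75%, among them GSTU15, ICR1, RPL12-B and AT5G22150. It was the lowest of its cross at 53 members, or 57.6%, against 30.2% of the expressed loci. L x Cm replicates 1 and 2 were lowest at 17 and 22 members (18.5% and 23.9%), against 36.7% and 33.1%. The highest was L x Cm replicate 1 at 48 members (52.2%), replicate 2 at 29 (31.5%) and replicate 3 at 15 (16.3%). Over the expressed loci these shares were 31.5%, 25.2% and 43.4%. L x Cm replicate 1 was at most 0.5 times both others at 2 members (2.17%, against 0.294% of the expressed loci). Replicate 2 was so at 1 member (1.09%, against 0.165%). Replicate 2 was the highest library in both crosses at 14 members, or 15.2%, against 6.36%. L x Cm replicate 3 was at least 2 times both others at 4 members, or 4.35%, against 0.318% of the 8503 loci. All 4 were short RNA loci or overlapped one. U1.5, a spliceosomal small nuclear RNA locus, had 300.1, 204 and 41.2 RPKM in Cm x L and 92.8, 63.7 and 392 RPKM in L x Cm. U4.2 had 31.7, 27.7 and 5.90 RPKM against 16.3, 8.27 and 81.0 RPKM, and the transfer RNA locus AT2G07743 had 112 RPKM in L x Cm replicate 3 and at most 10.6 RPKM elsewhere. The libraries were made from poly(A) RNA, per the labels' protocols. A locus can pass the minimum mean through the library in which it is high. Averaged over the other 5 libraries, 6 of the 22 members with a 4-fold range were under 20 RPKM. So were 2 of the 17 high in L x Cm replicate 1 (AT4G12825 and AT1G68735) and 3 of the 8 high in replicate 2 (AT5G28690, AT4G25780 and AT4G02650). Of the 4 high in replicate 3, 2 (U4.2 and AT2G07743) were under it as well. The background shares are therefore printed for scale only, and no difference from them is read as a result. These are shares of loci and not of samples, and 3 libraries a cross allow no test of 1 library.

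**Figure D5:**
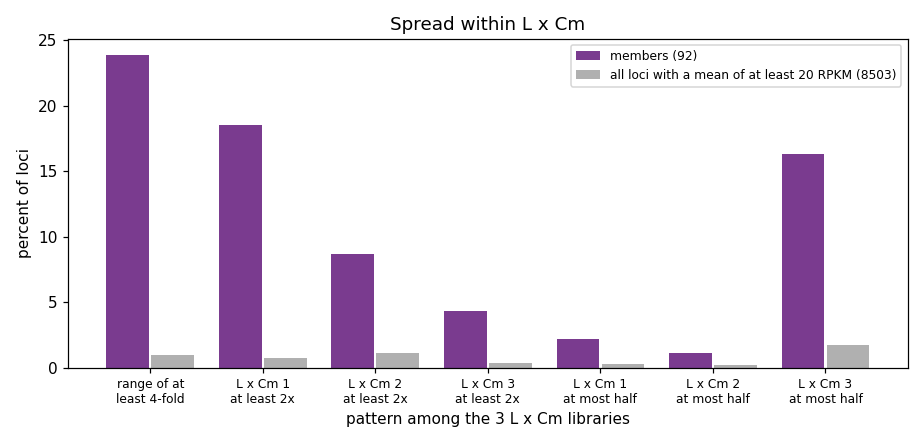
Percent of the 92 members (purple) and of all 8503 expressed loci (grey) whose 3 L x Cm libraries met each pattern. The share with a range of at least 4-fold is 23.9% against 0.988%, and the share in which L x Cm replicate 1 is at least 2 times both others is 18.5% against 0.741%. Some members passed the minimum mean only through the library in which they are high, so the grey bars are shown for scale only.

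Between the crosses, limma called 6 members higher and 6 lower in Cm x L, or 6.52% each. Over the 26620 tested loci these shares were 6.73% and 18.3%, and over the 8503 expressed loci 14.1% and 6.7%. The rule used the Cm x L values, so these calls are a description from which nothing is read, and no p is given for single members. The median log2 difference (Cm x L minus L x Cm) was 0.32 over the members, 0.14 over the expressed loci and -0.22 over all tested loci. Those called higher were AT3G16070 (67.1, 45.8 and 7.17 RPKM against 1.79, 1.53 and 1.67 RPKM, a log2 difference of 3.48), AT2G38160 (2.78), AT5G49410 (2.71), LBD42 (2.69), the pseudogene SADHU3-2 (2.55) and AT1G16960 (1.92). Those called lower were AT3G50250 (9.03, 5.60 and 0.303 RPKM against 76.7, 44.9 and 42.5 RPKM, a log2 difference of -3.60), AT5G28690 (-3.11), AT4G25780 (-2.79), ICL (-2.64), the defensin-like gene LCR72 (-2.55) and the transcribed pseudogene AT5G22044 (-2.17). All 6 of the latter had Cm x L means of 4.98 to 11.1 RPKM and L x Cm means of 35.4 to 54.7 RPKM, so they passed the minimum mean of 20 RPKM only through L x Cm, which fixed their direction. Among those called higher, AT3G16070, AT2G38160, AT5G49410 and SADHU3-2 had L x Cm means of 1.66, 4.13, 4.74 and 6.09 RPKM. They passed it only through Cm x L, which fixed their direction too. LBD42 and AT1G16960 had L x Cm means of 21.7 and 24.3 RPKM.

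Each of these 12 calls was lost without at least 1 library. AT3G50250 kept its call in 5 of the 6 fits and lost it without L x Cm replicate 1. AT3G16070 kept it in 4 and lost it without L x Cm replicate 1 or 2. The rest were less stable: AT5G22044 kept its call in 3 fits, AT1G16960, SADHU3-2 and AT5G49410 in 1, and the others in 2. Without Cm x L replicate 3, limma called 49 members higher (53.3%) and 7 lower (7.61%), beside 16.8% and 10.1% of the 8503 loci. The median log2 difference was then 1.44 over the members and 0.13 over the expressed loci. Members were chosen for high Cm x L replicates 1 and 2 relative to replicate 3, so the larger share of higher calls is built into the choice. The groups did not overlap at 14 members, 6 with Cm x L higher (6.52%) and 8 with it lower (8.7%), against 29.6% and 12.5% of the 8503 loci.

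Of the 34 gene lists of seed tissues, families and pathways, 8 held a member, and 81 members were in no list. Besides those named above, the cell wall list had 2 members (TBL22 and AGP41) of 66 expressed loci, and the list of lipid-transfer and cysteine-rich peptides had 3 (PDF2.1, RALFL26 and LCR72) of 67. The LBD list had 1 of 7, the cytochrome P450 list 1 of 25, and the nucleolar and translation list 1 (RPL12-B) of 59. By limma, 7 of 35 tested cell cycle loci were called higher in Cm x L and 1 lower, and for the nucleolar list these counts were 10 and 0 of 66. For the cell wall list 4 were called higher and 61 lower of 229, for the peptide list 2 and 54 of 135, for the LBD list 1 and 16 of 36, and for the P450 list 7 and 68 of 203. These calls span all loci of a list, members or not, beside 6.73% and 18.3% over all tested loci. The lists of MADS-box, MYB, NAC and WRKY factors, imprinted genes, Polycomb, DNA methylation, histones, heat shock, flavonoids and glucosinolates held 0 members.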

How the data were processed

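RNA had been measured by poly(A) sequencing of endosperm nuclei in 6 libraries, 3 per cross. RNA was extracted with the mirVana kit and an NEBNext Ultra II kit made the libraries, per the labels' protocols. TopHat2 2.1.0 and the build TAIR10 are named, per the submitters' processing notes. Which tool counted reads, and whether by strand, is not given in the sources used here. Values are the authors' deposited RPKM, scaled by locus length and library total, so a few abundant transcripts can shift all others. Columns were matched to samples by parent order and replicate number, with 0 columns left over.

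The rule of the selection was applied to the RPKM values as deposited. limma 3.58.1 in R 4.3.3 tested the cross direction on log2(RPKM + 1) for 26620 loci averaging 1 RPKM or more, with an intensity trend, 2-sided, and Benjamini-Hochberg adjustment over all of them, by a script tested on simulated data. With 3 libraries a cross, the smallest p of an exact permutation test is 0.1. p-values measure the spread between these libraries, which may be technical. Fold values on the RPKM + 1 scale understate the change of low loci. Read totals were recovered by finding the depth at which low values of 406 to 1717 pseudogenes became whole numbers of reads (99.4% to 100% within 0.02), a share the depth was chosen for. One read on 1 kb was worth 0.0343 to 0.0472 RPKM. Locus classes, exon lengths and promoter windows came from RefSeq TAIR10.1, to which 32835 of 33602 loci matched. The table has no coordinates, and those printed are of TAIR10.1. Motifs were searched on both strands with Python 3.11.15, pandas 2.3.3 and numpy 2.4.6, and figures were drawn with matplotlib 3.10.9.

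The members and the gene lists were chosen with earlier results of these data known. Loci were named by rule: the 12 highest means, the 12 largest reductions, members of a list, the 3 loci on each side of the threshold, up to 6 members with L x Cm above, and the limma calls (6 at most in each direction); ULT2, BES1, RTE1, EPF2, RL6, REM1, TRM5, ICR1, MIR842, U4.2, AT3G05725, AT4G02650, AT4G03290, AT2G07743 and the ENODL genes beyond those were added after their values were seen. Also outside these rules were AT2G38870, AT4G12825, AT4G36700 and AT1G68735, named in a count. So were AT3G22070, AT3G22072, AT3G06895, NPQ1 and AT3G41761, named for an overlap. Alternatives changed the pseudocount, the level filter, the fraction, the scaling, the block and the libraries.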

Additional observations from a re-analysis of the deposited data

How the results depend on the processing

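The number of members followed the rule: 52 with 5 RPKM added in place of 1, 277 and 33 with a mean of at least 5 and 50 RPKM, and 174 and 24 with the ratio bound moved from 25% to 33.3% and 12.5%. Of these, 41, 160, 23, 105 and 18 had all L x Cm libraries below Cm x L replicates 1 and 2 (78.8% with 5 RPKM added against 58.7% as reported), and 35, 112, 19, 88 and 16 had an L x Cm mean nearer Cm x L replicate 3 (67.3% with 5 RPKM added against 46.7%). With 0.1 RPKM added, rescaling to the same median or quantile normalization the number was 112, 98 and 77, of which 92, 91 and 73 were among the 92; 62, 57 and 52 lay below and 50, 48 and 43 nearer. Without 1 L x Cm library, an alternative chosen after seeing the data, the count below was 57 each time and the nearer count 44 to 47.

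The limma calls of members depended on the settings, and the cause was not tested. Calls higher were 6 as reported, 1 with no filter on level and 0 by limma among the 8503 loci alone (26 members had an unadjusted p under 0.05, in either direction, over all loci). Calls lower were 6 as reported and 1 with 0.1 RPKM added, with no filter and among the 8503 loci alone. Without 1 library the higher calls ran from 0 to 49, the lower calls from 0 to 12 and the median log2 difference from -0.23 to 1.44. The median was -0.23 and -0.13 without Cm x L replicate 1 and 2, and 0.77 without L x Cm replicate 1. With the replicate number as a block, 15 members were higher and 17 lower. What same-numbered libraries share beyond the label was not tested. Deviations of same-numbered libraries correlated at 0.0807, 0.146 and 0.204, and those of other pairs between the crosses at -0.227 to 0.124. Each Cm x L replicate correlated best with the L x Cm library of its number, but L x Cm replicate 1 correlated best with Cm x L replicate 2 (0.124). Depth limits the 5 members with about 3 reads or fewer in Cm x L replicate 3.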
